A study of Mus musculus with 48 samples.

Results

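Pyramidal cells of the intermediate part of hippocampal field CA1 were compared with pyramidal cells of its ventral part in the mouse. The comparison used 6 of the 48 libraries of the series, 3 per position, chosen by the population that the labels name, and every gene of the count table apart from spike-in sequences and summary lines. The 48 libraries were made from 16 populations of hippocampal neurons, each from fluorescent cells that were picked by hand out of dissected slices. The intermediate group is labelled as intermediate CA1 pyramidal cells and the ventral group as ventral CA1 pyramidal cells, both located in CA1, and neither label names a treatment. Strain, age, sex, the line or tracer that made the cells fluorescent and the pooling of animals are not given in the sources used here.

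CA1 pyramidal cells are the glutamatergic output neurons of the hippocampus. Along the long axis of the hippocampus they differ in their inputs, targets and excitability, with the dorsal pole best known for its part in spatial memory and the ventral pole for its part in emotion and stress responses. Intermediate CA1 lies between the poles, and the comparison asks how its cells differ in gene expression from those of the ventral pole.

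Levels are given as CPM, read counts per 1000000 reads after scaling all 48 libraries to a common effective size, and are listed in the order of libraries 1, 2 and 3 of each group. Intermediate libraries held 6695605 to 10393158 gene reads and ventral libraries 5116568 to 8354457 gene reads. Genes of the mitochondrial genome took 9.18% to 10.5% of gene reads in intermediate libraries and 11.3% to 12.9% in ventral libraries, ranges that did not overlap, and the part of this in the differences was not tested. The libraries were mixed in sex. Xist, the transcript of the inactive X chromosome, stood at 867.9 and 1218 CPM in intermediate libraries 1 and 2 and at 2.97 CPM in intermediate library 3, against 6.39, 6.16 and 5.54 CPM in the ventral libraries. The Y-linked gene Ddx3y stood at 1.14, 1.59 and 46.0 CPM in intermediate libraries against 34.3, 46.7 and 37.2 CPM in ventral libraries. Calls and counts are therefore also given, where they change, from a fit added after this was seen that left out intermediate libraries 1 and 2 and assumed that the lone intermediate library varies like the others. Of 453 X-linked genes tested, 15 were called higher in intermediate and 13 higher in ventral cells, 6.18% of them, beside 4.98% of the genes on other chromosomes.

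Markers followed the labels in part. Some listed CA1 pyramidal markers are not limited to the field. Camk2a averaged 3407 CPM in dorsal CA3 and 3371 CPM in dorsal granule cells, beside 2156 CPM in intermediate CA1. Mpped1 averaged 0.178 and 1.20 CPM in the same dorsal CA3 and granule cells. The listed gene Pou3f1 had no read in intermediate or ventral CA1. Of 9 CA1 pyramidal markers tested, 4 were higher in intermediate and 3 higher in ventral cells, so the list is not level along CA1. The counts were 3 and 0 with only libraries low in Xist, and the ventral side held 1 without any one intermediate library and 2 without any one ventral library. The CA1 gene Fibcd1 was read at 214, 208 and 193 CPM in intermediate libraries against 223, 281 and 404 CPM in ventral libraries, and the CA1 gene Mpped1 at 169.5, 203 and 201 against 202, 226 and 278 CPM. Fibcd1 was called higher in ventral cells (adjusted p = 0.0446), a call lost without ventral library 3 (adjusted p = 0.252) and without each other library apart from ventral library 1, and among libraries low in Xist (adjusted p = 0.306), while Mpped1 was not called. Of 7 GABAergic markers 3 were tested and 0 were called by edgeR (1 at an unadjusted p under 0.05, 0 by DESeq2), with a summed level of 13.7 to 19.1 CPM in intermediate and 17.2 to 35.6 CPM in ventral libraries. Gad2, a GABA-synthesising enzyme, stood at 10.8, 12.2 and 8.80 CPM in intermediate libraries against 12.8, 11.2 and 14.4 CPM in ventral libraries, and the interneuron genes Dlx6, Lhx6 and Pvalb had no read in either group. The oligodendrocyte sum was 33.2 to 38.3 CPM in intermediate and 48.6 to 67.4 CPM in ventral libraries, and the mural cell sum 16.5 to 26.5 CPM against 3.44 to 15.04 CPM. Most of the oligodendrocyte sum was Mbp, with means of 35.3 CPM in intermediate and 57.6 CPM in ventral libraries. Most of the mural sum was Rgs5, at 22.0 against 7.96 CPM. The mural gene Pdgfrb went the other way, at 0.0788 against 1.26 CPM. EdgeR and DESeq2 called 0 members of the oligodendrocyte and mural lists, though 1 oligodendrocyte and 1 mural gene had an unadjusted edgeR p under 0.05. Without ventral library 1, edgeR called the mural gene Rgs5 higher in intermediate cells. The astrocyte gene Gfap, the microglial gene Cx3cr1 and the endothelial gene Cldn5 had no read. The part of all these cells in the results was not tested. Markers of CA3 pyramidal cells summed to 9.15 to 32.7 CPM in intermediate and 37.1 to 66.6 CPM in ventral libraries. The largest member was St18, at 18.8, 6.75 and 4.12 CPM in intermediate libraries against 54.4, 19.4 and 37.8 CPM in ventral libraries. The listed genes Iyd and Csf2rb2 had no read. Of 5 tested members, 2 leaned to intermediate and 3 to ventral cells, with 0 called by edgeR (1 at an unadjusted p under 0.05, and 1 by DESeq2). EdgeR called 1 of them higher in ventral cells among libraries low in Xist, without intermediate library 1 and without ventral library 2. The part of such cells in the results was not tested. Markers of CA2 pyramidal cells summed to 35.9 to 71.9 CPM in intermediate and 62.7 to 83.9 CPM in ventral libraries, ranges that overlapped, and 1 of 4 tested members was called. This was Pcp4, at 4.71, 2.25 and 1.03 CPM in intermediate libraries against 13.9, 9.78 and 22.4 CPM in ventral libraries (adjusted p = 0.0168), a call lost without intermediate library 2 (0.0596), intermediate library 3 (0.0751) or ventral library 3 (0.127). In pools of cells such as these, fewer cells expressing a gene and less RNA per cell cannot be told apart.

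In the fit of the 9 dorsal, intermediate and ventral CA1 libraries, 379 of 12149 genes were called higher in intermediate cells (3.12%) and 232 higher in ventral cells (1.91%), at an adjusted p under 0.05, for 5.03% called in all. Among called genes, the ventral side held fewer but larger differences. Its genes were also at lower levels, with a median of 74.84 CPM in the higher group, against 164.8 CPM on the intermediate side. The part of level in the size of differences was not tested. The median fold was 1.78 for genes higher in intermediate cells and 2.53 for genes higher in ventral cells. A difference of at least 4-fold was found for 50 of the 379 genes (13.2%) and 81 of the 232 genes (34.9%). Every library of one group lay above every library of the other for 374 of the 379 and 225 of the 232 genes, beside 20.1% of all genes tested. With only libraries low in Xist, 162 genes were called higher in intermediate and 81 higher in ventral cells, 214 of them among the 611, and all 611 kept their direction. The 611 were called with these same libraries, so their kept direction was nearly fixed in advance, and the part of sex was not tested. Calls fell to 399 without intermediate library 1 and to 80 in a fit of all 48 libraries, 77 of them among the 611.

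**Figure D1:**
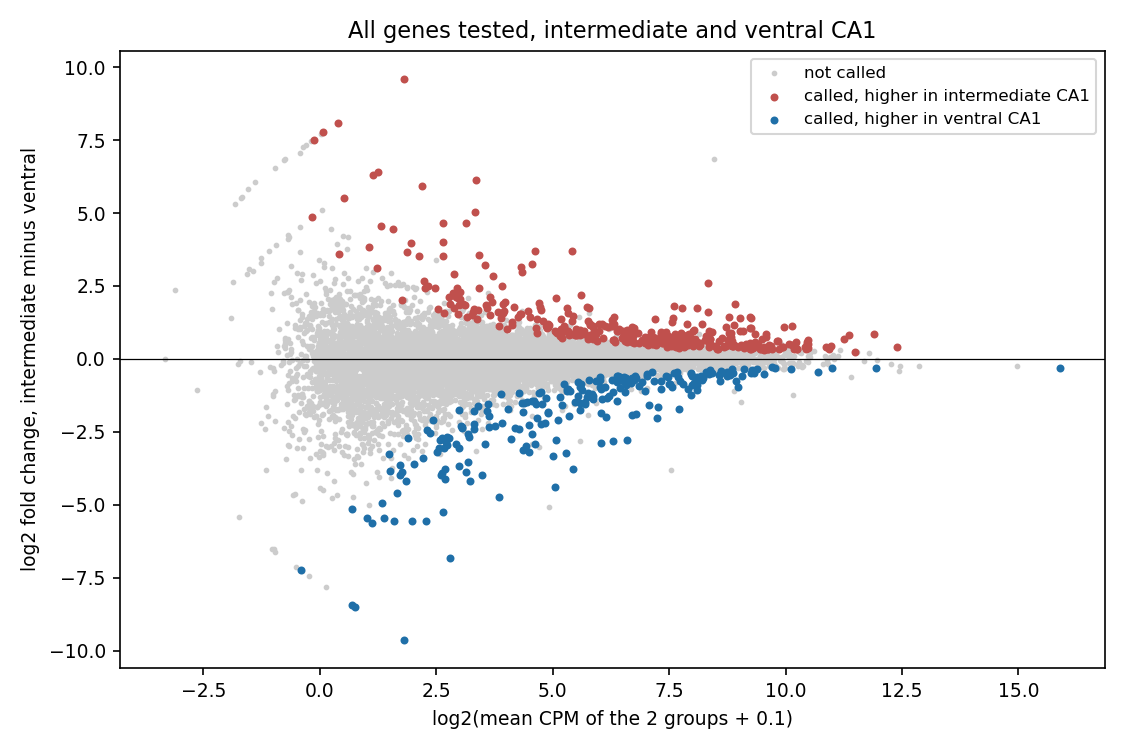
Each point is 1 of the 12149 genes tested, with the log2 of the mean CPM of intermediate and ventral CA1 cells plus 0.1 on the horizontal axis and the log2 fold change, intermediate minus ventral, on the vertical axis. The 379 genes called higher in intermediate cells (red) reach high levels with small differences, and the 232 called higher in ventral cells (blue) spread to larger differences, with median folds of 1.78 and 2.53.

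The genes with the largest differences on the intermediate side were of mixed function. Grem1, a secreted antagonist of bone morphogenetic proteins, was read at 74.4, 92.7 and 69.9 CPM in intermediate libraries against 13.4, 1.63 and 2.54 CPM in ventral libraries, with ventral library 1 the highest of its group. Its log2 fold change was 3.69 ± 0.64 (SE; adjusted p = 0.00849). Luzp2, a leucine zipper gene, was at 43.2, 44.9 and 39.1 CPM in intermediate libraries against 6.02, 5.07 and 2.31 CPM in ventral libraries, a log2 fold change of 3.24 ± 0.31 (adjusted p = 4.87e-06). Kl encodes klotho, a co-receptor for fibroblast growth factor 23 that is also strong in choroid plexus. It was read at 39.8, 30.3 and 37.5 CPM in intermediate libraries against 3.01, 5.07 and 4.04 CPM in ventral libraries (log2 fold change 3.15 ± 0.32, adjusted p = 7.36e-06), while Ttr, the defining choroid plexus transcript, stayed at or under 0.187 CPM in all 6 libraries. Mgll, the lipase that breaks down the endocannabinoid 2-arachidonoylglycerol, stood at 23.8, 22.1 and 23.2 CPM against 3.13, 2.17 and 4.04 CPM (log2 fold change 2.84 ± 0.33, adjusted p = 2.59e-05). Its 3 intermediate libraries were nearly level, and every ventral library was below them, as the rule for choosing these genes required.

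Has3, a hyaluronan synthase, was read at 29.9, 17.1 and 16.01 CPM in intermediate libraries against 1.38, 2.90 and 2.54 CPM in ventral libraries (log2 fold change 3.21 ± 0.41). Its exons overlap those of Chtf8 on the other strand, so its level is uncertain. Strip2, a member of the striatin-interacting complex, was at 60.6, 21.4 and 24.8 CPM against 4.26, 6.34 and 3.003 CPM (log2 fold change 2.98 ± 0.37). The Wnt5a receptor Ror1 stood at 26.2, 22.9 and 9.61 CPM against 0.501, 1.45 and 2.89 CPM, and Ano5, of the anoctamin family, at 6.99, 18.5 and 8.46 CPM against 2.00, 0.725 and 0.116 CPM. Both were lower in intermediate library 3 than in at least one of the other intermediate libraries, and neither was called in the fit of libraries low in Xist (adjusted p = 0.0699 for Ror1 and 0.124 for Ano5). Lct, the lactase gene, had the widest spread, with 35.6, 4.87 and 19.1 CPM in intermediate libraries against 0, 0.181 and 0.578 CPM in ventral libraries and 119.9, 126 and 127 CPM in dorsal libraries. Its log2 fold change of 6.13 ± 0.98 (adjusted p = 0.00788) missed the threshold without ventral library 1 (adjusted p = 0.0580) and without ventral library 2 (adjusted p = 0.0557). Plekhg1, a guanine nucleotide exchange factor gene, was at 67.9, 24.7 and 44.5 CPM against 6.39, 3.81 and 0.462 CPM, and its adjusted p of 0.0202 became 0.0897 without ventral library 2. Eno1b, also among the 15, has near-identical enolase copies that can share its reads, so its difference is uncertain.

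**Figure D2:**
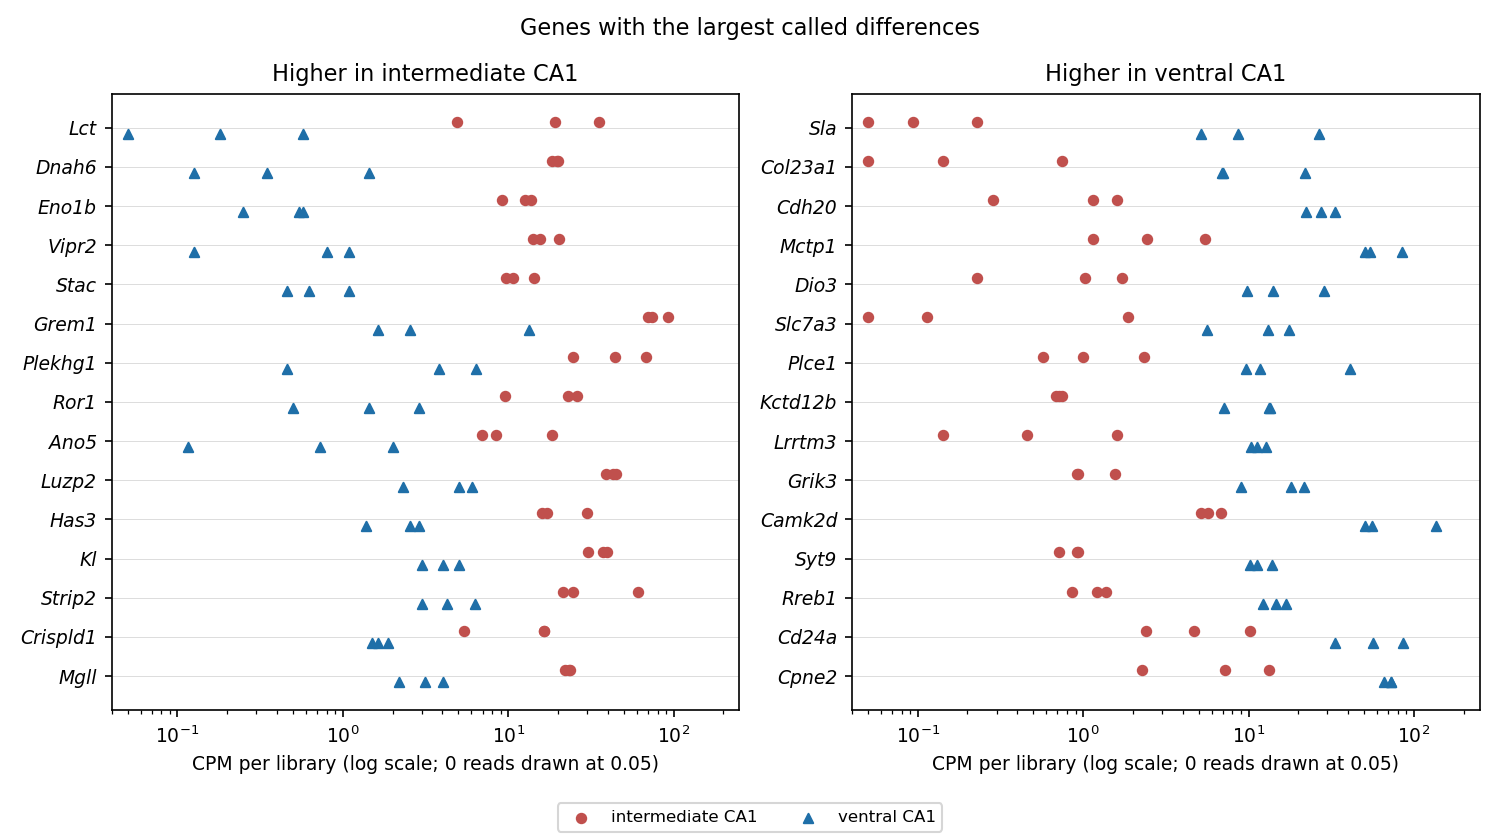
CPM per library on a log axis for the 15 genes with the largest called differences in each direction, with intermediate CA1 libraries as red circles and ventral CA1 libraries as blue triangles. The groups do not overlap for any of the 30 genes, which the rule for choosing them required, and the spread is wide for Lct, at 4.87 to 35.6 CPM in intermediate cells, and narrow for Mgll, at 22.1 to 23.8 CPM.

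The largest differences on the ventral side were also in genes of mixed function. Sla, an adaptor that dampens receptor signalling in lymphocytes, was nearly unread in intermediate libraries, at 0, 0.0937 and 0.229 CPM, against 5.14, 8.70 and 26.8 CPM in ventral libraries. With 3 reads in the intermediate group, the ratio of ventral to intermediate CPM was 128 with a 95% counting interval of 43.3 to 622. Cpne2, a calcium-dependent phospholipid-binding copine, was read at 2.28, 13.2 and 7.20 CPM in intermediate libraries against 72.2, 65.6 and 73.0 CPM in ventral libraries, a log2 fold change of -3.21 ± 0.41 (adjusted p = 7.84e-05). The 3 ventral libraries were close together and the intermediate libraries spread more. Cd24a, a glycosyl-anchored surface protein, was at 4.71, 10.2 and 2.40 CPM against 33.2, 56.4 and 85.9 CPM (log2 fold change -3.34 ± 0.44, adjusted p = 0.000115). Dio3, the deiodinase that inactivates thyroid hormone, was at 1.71, 1.03 and 0.229 CPM against 14.0, 9.78 and 28.8 CPM (log2 fold change -4.17 ± 0.67, adjusted p = 0.000675). All ventral libraries stood above all intermediate ones for both, which the rule for choosing these genes required.

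Rreb1, a zinc finger factor of the Ras pathway, stood at 0.855, 1.22 and 1.37 CPM in intermediate libraries against 12.3, 14.7 and 16.8 CPM in ventral libraries, and Lrrtm3, a postsynaptic organiser that binds neurexins, at 0.143, 1.59 and 0.457 against 11.3, 10.3 and 12.7 CPM. Their log2 fold changes were -3.66 ± 0.57 and -3.92 ± 0.76. Rreb1 missed the threshold with only libraries low in Xist (adjusted p = 0.0511). Plce1, a phospholipase C activated by Ras, was at 0.998, 2.34 and 0.572 CPM against 40.9, 9.60 and 11.8 CPM, with ventral library 1 the highest. Its adjusted p of 0.0220 became 0.101 without that library, 0.136 without intermediate library 1 and 0.101 without intermediate library 3, and it was 0.282 with only libraries low in Xist. The arginine transporter Slc7a3, at 0, 1.87 and 0.114 CPM against 13.0, 5.62 and 17.6 CPM (adjusted p = 0.0161), missed the threshold without intermediate library 1 (0.0514), intermediate library 3 (0.0707) or ventral library 3 (0.0931). The collagen gene Col23a1, at 0.143, 0.750 and 0 against 22.1, 6.88 and 7.04 CPM (adjusted p = 0.00331), missed it without ventral library 1 (adjusted p = 0.0528).

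Calcium and cyclic nucleotide signalling had the largest share of members called, both directions together, of the 15 lists. Of 65 genes tested, 15 stood higher in intermediate cells (23.1%, beside 3.12% of all genes) and 7 in ventral cells (10.8%, beside 1.91%), with a median log2 fold change of 0.24 beside -0.01 over all genes. Members higher in intermediate cells included Adcy1, a calcium-stimulated adenylyl cyclase, Hpca, the calcium sensor hippocalcin, Ppp3ca, the catalytic subunit of calcineurin, and Prkca, a protein kinase C. Adcy1 was read at 682, 652 and 603 CPM in intermediate libraries against 298, 222 and 194 CPM in ventral libraries (log2 fold change 1.42 ± 0.13, adjusted p = 2.32e-06). Hpca stood at 1768, 1393 and 1500.0 CPM against 689.7, 788 and 605 CPM, and Ppp3ca at 3516, 3073 and 3589 CPM against 1963, 2016 and 1737 CPM. Their log2 fold changes were 1.14 ± 0.10 and 0.81 ± 0.08, with no overlap between groups. Necab3, a neuronal calcium-binding gene, was at 0.285, 0.187 and 0.114 CPM in intermediate libraries against 14.3, 6.34 and 7.16 CPM in ventral libraries (log2 fold change -5.56 ± 0.91). With only libraries low in Xist, 7 members were called higher in intermediate cells and 6 higher in ventral ones. The counts without one library were 10 to 14 and 4 to 8, the 4 without intermediate library 3 and the 10 without intermediate library 1.

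Related genes within this list moved in opposite directions. CaMKII is a holoenzyme of subunits from 4 genes, of which Camk2a and Camk2b make the main forebrain subunits. Camk2a was at 2172, 2207 and 2088 CPM in intermediate libraries against 1522, 1571 and 1669 CPM in ventral libraries (log2 fold change 0.42 ± 0.07, adjusted p = 0.000646), and Camk2b at 986, 780.3 and 901 CPM against 568, 547 and 525 CPM (log2 fold change 0.68 ± 0.09, adjusted p = 0.000139). Camk2d was at 5.13, 6.84 and 5.72 CPM in intermediate libraries against 56.1, 50.9 and 136 CPM in ventral libraries (log2 fold change -3.79 ± 0.39, adjusted p = 7.36e-06), and Camk2g at 45.5, 34.7 and 43.9 CPM against 107, 95.8 and 104 CPM (log2 fold change -1.33 ± 0.21, adjusted p = 0.000469). Thus both main forebrain subunits were higher in intermediate cells and the other subunits higher in ventral cells. Per transcript length, Camk2d averaged 3.57 ± 1.72 FPKM in intermediate and 26.8 ± 13.7 FPKM in ventral cells (SD, n = 3 each), beside 553 ± 14.9 and 415 ± 2.05 FPKM for Camk2a. Camk2a missed the threshold with only libraries low in Xist (adjusted p = 0.0575), while Camk2b, Camk2d and Camk2g kept their calls there and without each library in turn.

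Plasma membrane calcium pumps split in the same manner. Atp2b1 was read at 5082, 4305 and 5403 CPM in intermediate libraries against 2810.0, 3047 and 2112 CPM in ventral libraries (log2 fold change 0.87 ± 0.12, adjusted p = 0.000496), and Atp2b2 at 650.2, 592 and 629.6 CPM against 468, 460.2 and 505 CPM (log2 fold change 0.37 ± 0.09, adjusted p = 0.0144). Atp2b4, in contrast, was at 15.7, 24.8 and 18.6 CPM in intermediate libraries against 117, 102 and 193 CPM in ventral libraries (log2 fold change -2.81 ± 0.29, adjusted p = 7.36e-06). Per transcript length Atp2b4 averaged 3.23 ± 0.913 FPKM in intermediate and 24.5 ± 10.3 FPKM in ventral cells, beside 917 ± 80.7 and 519 ± 89.5 FPKM for Atp2b1, so Atp2b1 was the more abundant of the pair in both groups. Atp2b2 missed the threshold without intermediate library 1 (adjusted p = 0.0631) or ventral library 2 (adjusted p = 0.0595) and with only libraries low in Xist (adjusted p = 0.146).

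Of 26 glutamate receptor genes tested, 4 stood higher in intermediate cells (15.4%, beside 3.12% of all genes) and 4 in ventral cells (15.4%, beside 1.91%). Grin2a, an NMDA receptor subunit that gives fast kinetics, was at 1002, 852 and 1024 CPM in intermediate libraries against 598, 626 and 472 CPM in ventral libraries (log2 fold change 0.74 ± 0.11, adjusted p = 0.000248). Grin3a, a subunit that lowers the calcium permeability of NMDA receptors, was at 43.6, 88.4 and 91.7 CPM in intermediate libraries against 242, 225 and 227 CPM in ventral libraries (log2 fold change -1.65 ± 0.24, adjusted p = 0.000371). The ventral libraries were close to level for Grin3a, and intermediate library 1 was the lowest of the 6. Grin2b was at 1300.0, 1291 and 1446 CPM against 1188, 1164 and 1062 CPM and was not called (adjusted p = 0.127). Grin3a also marks SST interneurons, and that list summed to 71.3 to 113.8 CPM in intermediate and 251.7 to 267.6 CPM in ventral libraries. Most of this sum was Grin3a itself. Sst stood at 5.28, 1.31 and 2.86 CPM in intermediate libraries against 0.627, 1.09 and 2.54 CPM in ventral libraries, and Npy at 16.1, 17.3 and 14.52 CPM against 20.2, 19.8 and 19.98 CPM, neither of them called.

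Among AMPA receptor subunits, Gria1 was at 1642, 1498 and 1548 CPM in intermediate libraries against 1231, 1242 and 1023 CPM in ventral libraries (log2 fold change 0.40 ± 0.09, adjusted p = 0.00742), and Gria4 at 18.8, 25.6 and 35.3 CPM against 51.4, 58.2 and 60.1 CPM (log2 fold change -1.11 ± 0.25, adjusted p = 0.0122). The kainate receptor subunit Grik3 was at 1.57, 0.937 and 0.915 CPM against 21.6, 9.06 and 18.02 CPM (log2 fold change -3.86 ± 0.59, adjusted p = 0.000411). Gria1 was thus higher in intermediate cells, and Gria4 and Grik3 were higher in ventral cells. Gria4 missed the threshold without intermediate library 1 (adjusted p = 0.0741) or ventral library 3 (adjusted p = 0.0502), and neither Gria1 nor Gria4 was called with only libraries low in Xist (adjusted p = 0.123 and 0.464). In that fit 1 member of the list was called higher in intermediate cells and 2 higher in ventral ones, and without intermediate library 1 or ventral library 3 it was 2 in each direction. Without intermediate library 3 or ventral library 2, 2 members were called higher in intermediate cells and 4 in ventral cells.

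Of 19 GABA receptor genes tested, 3 stood higher in intermediate cells (15.8%, beside 3.12% of all genes). On the ventral side 2 were called (10.5%, beside 1.91%). Gabrb2, a beta subunit of GABA-A receptors, was at 659, 746 and 758 CPM in intermediate libraries against 472, 498 and 474 CPM in ventral libraries (log2 fold change 0.56 ± 0.09, adjusted p = 0.000616). The alpha subunit gene Gabra3 went the other way, at 40.4, 89.8 and 46.9 CPM in intermediate libraries against 132, 96.2 and 153 CPM in ventral libraries (log2 fold change -1.13 ± 0.24, adjusted p = 0.00821). It is X-linked and was highest among intermediate libraries in library 2, and its call was lost without intermediate library 1 (0.0564), intermediate library 3 (0.0601) or ventral library 3 (0.0502). Without the same 3 libraries in turn, and with only libraries low in Xist, the count on the ventral side of this list was 1.

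**Figure D3:**
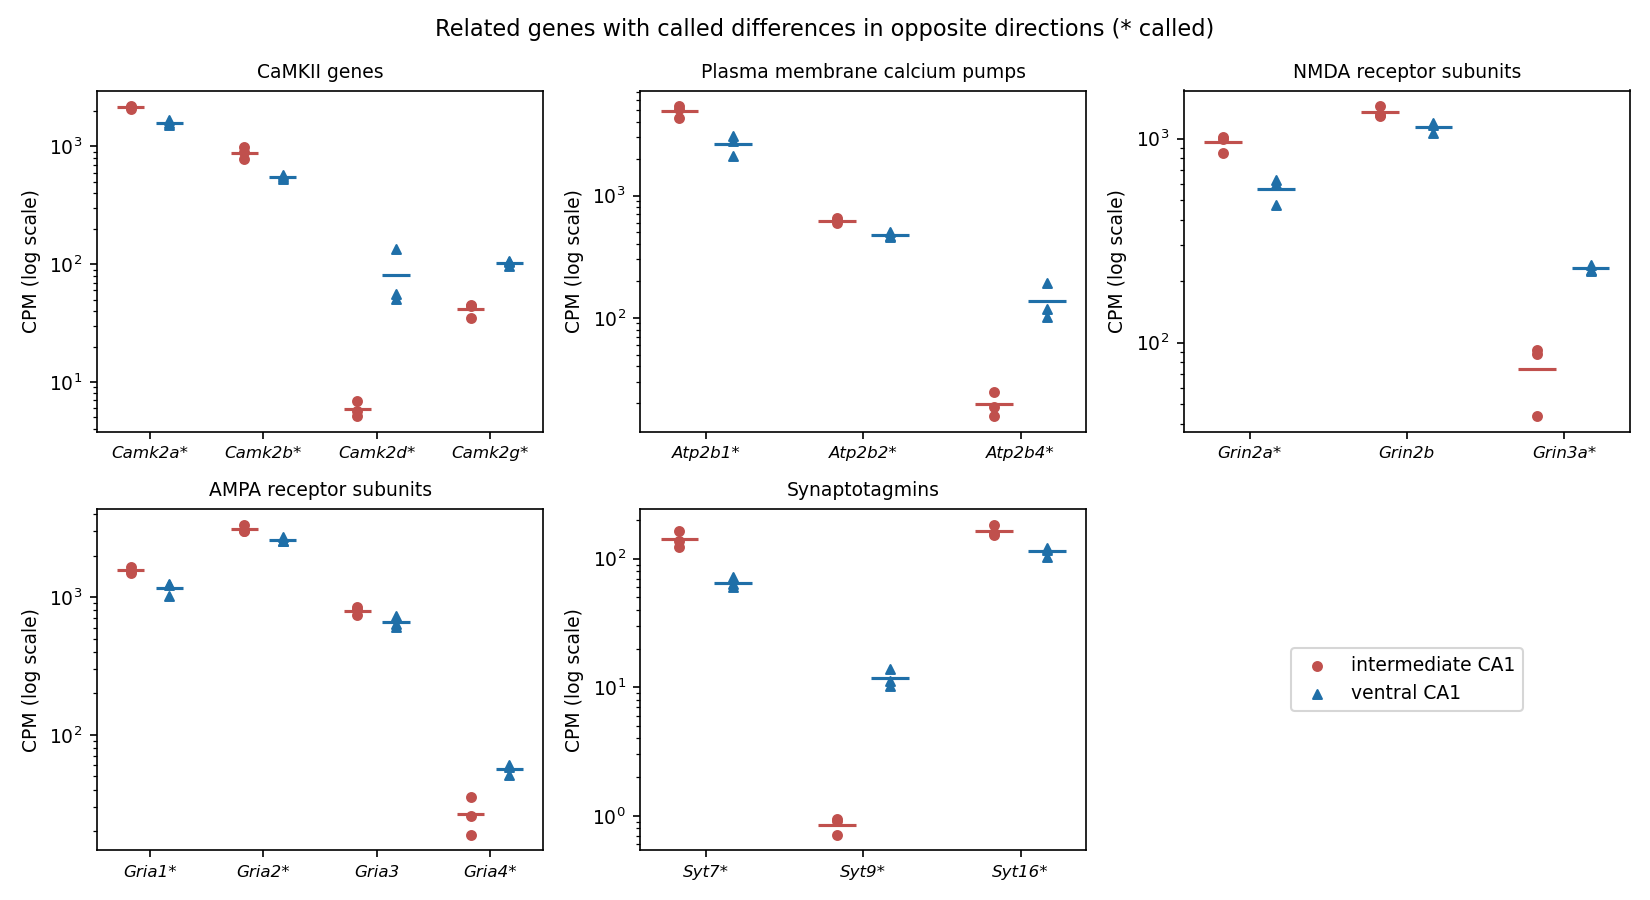
CPM per library on log axes for 5 sets of related genes, intermediate CA1 (red circles) left of ventral CA1 (blue triangles) for each gene, bars at the group means and an asterisk on genes called between the groups. Within each of the 5 sets a member called higher in intermediate cells stands beside one called higher in ventral cells. Examples are Camk2a and Camk2d, and Syt7 and Syt9, though not all of these calls held in every fit. The sets were picked to show this with the values known, and not every member of each family is drawn.

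Potassium channel genes were called in both directions. Of 59 tested, 5 were higher in intermediate cells (8.47%, beside 3.12% of all genes) and 4 in ventral cells (6.78%, beside 1.91%). Kcnd2, which carries the dendritic A-type current of pyramidal cells, was at 352, 301 and 367 CPM in intermediate libraries against 178, 192 and 152 CPM in ventral libraries (log2 fold change 0.95 ± 0.12, adjusted p = 4.9e-05). Kcnh7, of the ERG family, was at 870.2, 637 and 756 CPM against 254, 223 and 136 CPM (log2 fold change 1.87 ± 0.20, adjusted p = 0.000341), and Kcnq3, an M-current subunit, at 167, 83.6 and 130.1 CPM against 59.0, 74.1 and 62.1 CPM (log2 fold change 0.95 ± 0.19, adjusted p = 0.00548). In ventral cells, the silent modifier subunit Kcng1 and the Kv3 channel gene Kcnc4 were higher. Kcng1 was at 10.3, 8.24 and 7.43 CPM in intermediate libraries against 62.3, 50.2 and 62.6 CPM in ventral libraries (log2 fold change -2.77 ± 0.29, adjusted p = 8.56e-06), and Kcnc4 at 4.56, 10.1 and 2.74 CPM against 51.8, 32.2 and 46.0 CPM (log2 fold change -2.91 ± 0.44, adjusted p = 0.000382). Among libraries low in Xist 4 members were called higher in intermediate cells and 2 higher in ventral ones. Without intermediate library 2 the counts were 9 and 6, and without intermediate library 3 they were 5 and 2.

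Of 34 sodium, calcium and HCN channel genes, 5 stood higher in intermediate cells (14.7%, beside 3.12% of all genes). On the ventral side 1 was called (2.94%), near the 1.91% of all genes. Scn3b was the only member named here that kept its call without each library in turn. The others named were the calcium channel genes Cacna2d3, Cacna1a and Cacna1i on the intermediate side and Cacna1c, an L-type channel, on the ventral side. Cacna1c was at 71.3, 80.8 and 82.8 CPM in intermediate libraries against 133, 110.3 and 132 CPM in ventral libraries, with no overlap. Cacna2d3 missed the threshold without intermediate library 3 (0.0702) or ventral library 3 (0.0652), Cacna1a without each library in turn other than intermediate library 2 and ventral library 2 (up to 0.127), and Cacna1i without each other than ventral library 1 (up to 0.130). None of these 4 calcium channel genes was called among libraries low in Xist (adjusted p = 0.0853 for Cacna2d3, 0.128 for Cacna1a, 0.318 for Cacna1i and 0.410 for Cacna1c). For Cacna1c the adjusted p was 0.0216, and without one library it reached 0.107, the value without intermediate library 1. Without intermediate library 3 or ventral library 3, 1 member of the list was called higher in intermediate cells and 0 in ventral cells, as with only libraries low in Xist, and without intermediate library 1 the counts were 3 and 0.

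Peptide genes were called on the intermediate side, while 0 of 19 on the ventral side is close to the share of all genes there. Of 19 neuropeptide, granin and processing genes, 4 stood higher in intermediate cells (21.1%, beside 3.12% of all genes) and 0 in ventral cells (beside 1.91%), with a median log2 fold change of 0.24. On the ventral side edgeR gave 1 unadjusted p under 0.05, and DESeq2 and limma on FPKM called 0. The neurotrophin Bdnf was at 95.4, 81.6 and 104 CPM in intermediate libraries against 26.8, 57.6 and 35.9 CPM in ventral libraries (log2 fold change 1.21 ± 0.22, adjusted p = 0.00226). The granins Chgb and Scg2 are stored in dense-core vesicles. Scg2 was at 329.6, 314 and 306 CPM in intermediate libraries against 180.4, 181 and 151 CPM in ventral libraries (log2 fold change 0.87 ± 0.11, adjusted p = 0.000106), and Chgb at 763, 787 and 907 CPM against 404, 432 and 325 CPM. Penk, which encodes proenkephalin, was at 27.9, 13.4 and 23.2 CPM against 9.02, 9.06 and 6.24 CPM (adjusted p = 0.0247). Its call was lost without intermediate library 1 (0.128), intermediate library 3 (0.0821), ventral library 2 (0.0501) or ventral library 3 (0.1002). Penk was also not called among libraries low in Xist (adjusted p = 0.102). Between 3 and 4 members were called without one library, and 3 with only libraries low in Xist.

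Both granin promoters hold a full cAMP response element, the palindrome TGACGTCA bound by CREB, and are shown because these genes moved together. The letters are the 250 bases before the start site from RefSeq, build GRCm38.p6, with the element in capitals, at chr1:79440027-79440276 on the minus strand for Scg2 and chr2:132781392-132781641 on the plus strand for Chgb.
Scg2: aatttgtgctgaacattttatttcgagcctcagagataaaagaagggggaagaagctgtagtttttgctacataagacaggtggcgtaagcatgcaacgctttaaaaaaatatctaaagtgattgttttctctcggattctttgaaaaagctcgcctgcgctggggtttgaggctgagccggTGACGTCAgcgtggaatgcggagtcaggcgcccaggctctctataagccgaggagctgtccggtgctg
Chgb: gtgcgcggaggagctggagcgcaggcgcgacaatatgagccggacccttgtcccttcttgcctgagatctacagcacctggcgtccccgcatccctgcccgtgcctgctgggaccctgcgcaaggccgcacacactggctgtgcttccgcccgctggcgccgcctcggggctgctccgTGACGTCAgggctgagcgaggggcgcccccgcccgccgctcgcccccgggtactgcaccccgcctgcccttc
The element lies 60 bases before the start in Scg2 and 64 bases before it in Chgb. It was searched by exact letters in windows of 250 bases before to 50 after each start, where 1.79% of 32851 windows held it. Among tested genes with a window, 3.83% held it, beside 2.45% of those called higher in intermediate cells and 1.16% of those called higher in ventral cells. These shares are a description, with no test, and a match says only that these letters are present. The 7 Bdnf windows and the 1 Nr4a1 window did not hold it.

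Immediate-early genes are transcribed within minutes of neuronal activity. In intermediate cells 3 of 23 were called higher (13.0%, beside 3.12% of all genes), and in ventral cells 0 (beside 1.91%). For the ventral direction edgeR gave 0 unadjusted p-values under 0.05, and DESeq2 and limma called 0. Nr4a1, a nuclear receptor, was at 98.5, 96.1 and 43.8 CPM in intermediate libraries against 11.8, 25.4 and 15.2 CPM in ventral libraries (log2 fold change 2.18 ± 0.33, adjusted p = 0.000434). Egr1, a zinc finger factor, was at 421, 528 and 326 CPM against 117, 148 and 110.1 CPM (adjusted p = 0.00551), and Arc, a synaptic capsid-like protein, at 96.8, 110.1 and 39.3 CPM against 27.2, 37.0 and 17.2 CPM without a call (adjusted p = 0.0527). For Nr4a1, Egr1 and Arc intermediate library 3 was the lowest of the intermediate libraries. The whole list had a median log2 fold change of 0.81 beside -0.01 over all genes, with 21 of 23 members positive. The median was 0.36 without intermediate library 2 and 0.13 with only libraries low in Xist, where edgeR called 0 members in either direction (2 on each side at an unadjusted p under 0.05), with adjusted p = 0.0958 for Nr4a1 and 0.0604 for Egr1. Egr1 missed the threshold without ventral library 1 (0.0515) or ventral library 3 (0.0510). Without intermediate library 3, 5 members were called higher in intermediate cells, without ventral library 3 only 1, and without intermediate library 2 there were 2 higher in intermediate cells and 1 higher in ventral ones.

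Cell adhesion and synaptic organiser genes held 12 of 77 members higher in intermediate cells (15.6%, beside 3.12% of all genes). Another 11 were higher in ventral cells (14.3%, beside 1.91%), and the median log2 fold change was -0.09. Nrxn3, a presynaptic neurexin, was at 309.9, 234 and 292 CPM in intermediate libraries against 104, 108 and 97.7 CPM in ventral libraries, and Cadm2, a synaptic cell adhesion molecule, at 1020.0, 724 and 949 CPM against 349, 372 and 272 CPM. Both had a log2 fold change of 1.42 ± 0.13 (adjusted p = 2.32e-06) and no overlap between groups. Tenm1, a teneurin that binds latrophilins across the synapse, was level in intermediate libraries, at 149, 149 and 149 CPM, against 278, 341 and 427 CPM in ventral libraries (log2 fold change -1.24 ± 0.14, adjusted p = 1.99e-05). Tenm1 is X-linked. Its 3 intermediate values were alike, but only intermediate library 3 was low in Xist, and the part of sex was not tested. Ncam2, an adhesion molecule of the immunoglobulin family, was at 46.2, 51.5 and 34.0 CPM against 108, 127 and 256 CPM (log2 fold change -1.91 ± 0.26), and the protocadherin Pcdh7 at 25.2, 47.5 and 70.1 CPM against 169.6, 167 and 184 CPM (log2 fold change -1.88 ± 0.26). In the fit of libraries low in Xist 4 members were called higher in intermediate cells and 8 higher in ventral ones, and without one library 8 to 10 and 7 to 12. The lowest counts came without intermediate library 3 for the intermediate side, and without intermediate library 1 for the ventral side.

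Axon guidance genes were called in both directions. Of 57 tested, 7 stood higher in intermediate cells (12.3%, beside 3.12% of all genes) and 5 in ventral cells (8.77%, beside 1.91%). The 7 included 4 ephrin-A receptors, Epha4, Epha5, Epha6 and Epha7, and the receptors Robo1 and Robo2. Robo1 missed the threshold without each library in turn other than ventral library 2 (adjusted p up to 0.102, without intermediate library 1), and among libraries low in Xist (adjusted p = 0.388). Epha7 was at 459, 252 and 308 CPM in intermediate libraries against 95.1, 130.1 and 77.3 CPM in ventral libraries (log2 fold change 1.74 ± 0.24, adjusted p = 0.00217), and Epha4 at 1095, 864 and 1008 CPM against 552, 570.0 and 517 CPM (log2 fold change 0.84 ± 0.10, adjusted p = 4.19e-05). Epha6 was at 435, 364 and 439 CPM against 212, 201 and 119 CPM (log2 fold change 1.20 ± 0.17). All 4 receptors were higher in every intermediate library than in every ventral one. Slit2, the ligand of Robo receptors, was higher in ventral cells, at 14.3, 18.7 and 40.8 CPM in intermediate libraries against 141, 162 and 203 CPM in ventral libraries (log2 fold change -2.79 ± 0.33, adjusted p = 0.000123). Ntng1, which encodes netrin-G1, was at 22.1, 29.7 and 34.5 CPM against 94.4, 81.7 and 133 CPM (log2 fold change -1.86 ± 0.26, adjusted p = 0.000221). Among libraries low in Xist the counts were 6 and 3. Without intermediate library 1 they were 5 and 3.

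Extracellular matrix genes were called higher in intermediate cells for 3 of 40 (7.5%, beside 3.12% of all genes). In ventral cells 5 were called higher (12.5%, beside 1.91%), and the median log2 fold change was -0.31. Bcan encodes brevican, a proteoglycan of the perineuronal matrix, and was at 15.7, 2.53 and 8.35 CPM in intermediate libraries against 0.251, 0 and 0.116 CPM in ventral libraries. With 3 reads in the ventral group, the ratio of intermediate to ventral CPM was 58.7 with a 95% counting interval of 19.8 to 287 (adjusted p = 0.000133). Spock1, a testican proteoglycan, was at 18.7, 18.1 and 10.5 CPM in intermediate libraries against 141, 54.4 and 148 CPM in ventral libraries (log2 fold change -2.88 ± 0.32, adjusted p = 2e-05). Ventral library 2 was the lowest of the ventral libraries but still far above the intermediate ones. In the fit of libraries low in Xist 2 members were called higher in intermediate cells and 4 higher in ventral ones. The counts were 2 and 2 without ventral library 1 and 2 and 3 without intermediate library 1, and the intermediate side also had 2 without intermediate library 3, ventral library 2 or ventral library 3.

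Transcription factors of pyramidal neurons were called higher in intermediate cells for 5 of 57 and in ventral cells for 5 (8.77% each). Over all genes the shares were 3.12% and 1.91%. Neurod6, a basic helix-loop-helix factor of excitatory forebrain neurons, was at 775, 664 and 732 CPM in intermediate libraries against 377, 428 and 300.4 CPM in ventral libraries (log2 fold change 0.96 ± 0.12, adjusted p = 5.52e-05), and Nr3c2, the mineralocorticoid receptor, at 383, 406 and 388 CPM against 233, 292 and 259 CPM (log2 fold change 0.57 ± 0.10, adjusted p = 0.00226). The Ets factors parted, with Etv5 at 117, 114 and 92.7 CPM in intermediate libraries against 50.1, 54.7 and 40.2 CPM in ventral libraries (log2 fold change 1.14 ± 0.19, adjusted p = 0.000757) and Etv1 at 295, 364 and 375 CPM against 549, 652 and 801 CPM (log2 fold change -0.97 ± 0.12, adjusted p = 7.65e-05). Nr3c2 and Etv5 were not called with only libraries low in Xist (adjusted p = 0.0786 and 0.0899). The LIM-only factor Lmo4 was at 119, 151 and 120.5 CPM against 238, 213 and 246 CPM (log2 fold change -0.86 ± 0.14), and the nuclear receptor Nr2f2, or COUP-TFII, at 5.84, 11.8 and 12.5 CPM against 30.6, 27.5 and 62.4 CPM (adjusted p = 0.00527, 0.0705 without ventral library 3, and 0.221 among libraries low in Xist). Among the CA1 markers, Wfs1, an endoplasmic reticulum protein, was at 714, 329 and 612 CPM in intermediate libraries against 109, 90.2 and 67.3 CPM in ventral libraries (log2 fold change 2.62 ± 0.31, adjusted p = 0.00265). Among libraries low in Xist 5 factors were called higher in intermediate cells and 2 higher in ventral ones. Without intermediate library 2 the counts were 9 and 4, and without ventral library 3 they were 5 and 3.

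Of 42 synaptotagmin and release genes, 4 stood higher in intermediate cells (9.52%, beside 3.12% of all genes). In ventral cells 6 were higher (14.3%, beside 1.91%). Syt7, a slow calcium sensor of release, was at 164, 138 and 124 CPM in intermediate libraries against 63.0, 60.7 and 71.6 CPM in ventral libraries (log2 fold change 1.11 ± 0.14, adjusted p = 9.73e-05). Syt9, a fast sensor, was at 0.713, 0.937 and 0.915 CPM in intermediate libraries against 13.9, 10.2 and 11.2 CPM in ventral libraries (log2 fold change -3.78 ± 0.71, adjusted p = 0.00286), and Syn2, a synaptic vesicle phosphoprotein, at 369, 382 and 358 CPM against 539.6, 606 and 684 CPM (log2 fold change -0.74 ± 0.10, adjusted p = 0.000211). In the fit of libraries low in Xist Syt9 was not called (adjusted p = 0.115), and 1 member of the list was called in each direction. The counts were 2 and 2 without intermediate library 1, 2 and 3 without intermediate library 3 and 2 and 4 without ventral library 3.

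Receptor lists for modulators gave small counts. Of 23 neuropeptide receptor genes, 2 were called on each side (8.70% each, beside 3.12% and 1.91% of all genes). Of 25 monoamine and acetylcholine receptor genes, 2 were called on the intermediate side and 0 on the ventral side (8% and 0%). On that ventral side edgeR gave 3 unadjusted p-values under 0.05, DESeq2 called 2 and limma on FPKM 1. Adcyap1r1, the receptor for the stress-related peptide PACAP, was at 39.8, 34.0 and 25.3 CPM in intermediate libraries against 91.8, 55.4 and 104 CPM in ventral libraries (log2 fold change -1.36 ± 0.25, adjusted p = 0.00226). Chrna5, a nicotinic receptor subunit, was at 19.4, 8.34 and 11.9 CPM against 2.76, 1.99 and 3.12 CPM (log2 fold change 2.29 ± 0.42, adjusted p = 0.00226). The oxytocin receptor gene Oxtr was at 0.713, 7.21 and 5.72 CPM in intermediate libraries against 15.3, 16.5 and 35.6 CPM in ventral libraries (adjusted p = 0.0380), a call lost without intermediate library 1 (0.103), intermediate library 3 (0.0933), ventral library 2 (0.0566) or ventral library 3 (0.206), and among libraries low in Xist (0.318). Among libraries low in Xist the neuropeptide receptor counts were 1 and 1, as they were without intermediate library 1, intermediate library 3, ventral library 2 or ventral library 3, and without ventral library 1 they were 1 and 2. The monoamine and acetylcholine counts were then 1 and 2. Without intermediate library 1 they were 1 and 1, without intermediate library 2 they were 2 and 2, and without ventral library 1 or 3 they were 1 and 0. Oxidative phosphorylation had 0 of 75 genes called by edgeR, beside 5.03% of all genes, and a median log2 fold change of -0.04. Unadjusted p-values under 0.05 were found for 2 of them on the intermediate side and 3 on the ventral side, and DESeq2 and limma on FPKM also called 0.

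**Figure D4:**
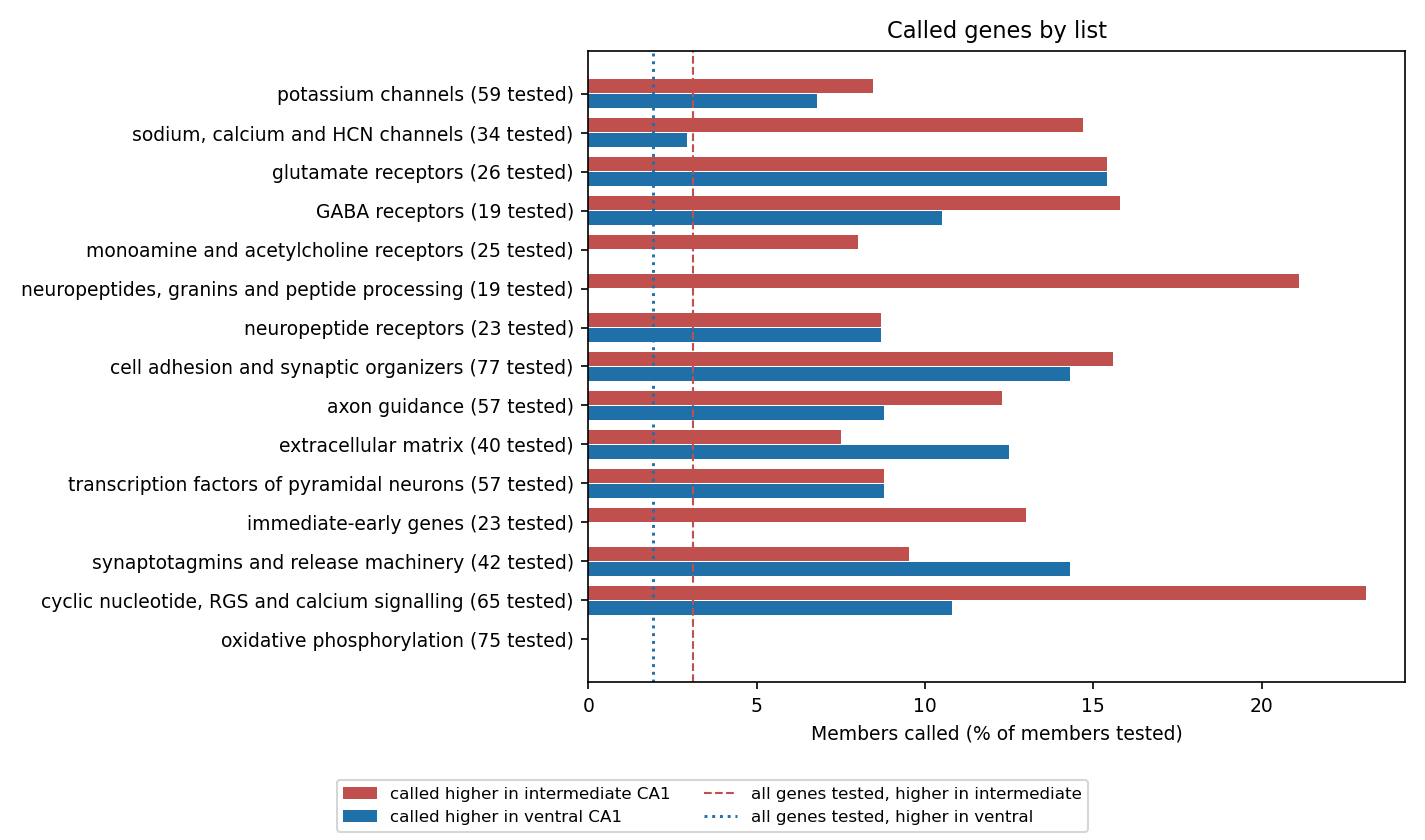
Bars give the share of each list's tested members called higher in intermediate CA1 (red) or higher in ventral CA1 (blue), in percent, and the vertical lines give the same shares over all genes tested, 3.12% and 1.91%. The calcium signalling list reaches 23.1% and 10.8%, peptide, monoamine and acetylcholine receptor and immediate-early genes have no bar on the ventral side, and no oxidative phosphorylation gene was called.

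Genes called in CA1 were looked up along the long axis of 2 other hippocampal fields, in libraries that the CA1 contrast does not contain. The fit for these fields also held the dorsal and ventral CA1 libraries of the CA1 fit. They entered its gene filter, scaling and estimate of the spread, but not its contrasts. It called 4.97% of its genes in CA3, 2.5% with more in dorsal and 2.48% with more in ventral CA3. In the dentate gyrus it called 19.4%, 8.71% with more in dorsal and 10.6% with more in ventral granule cells. Of the 379 genes higher in intermediate CA1, 90 were called higher in dorsal than in ventral CA3 pyramidal cells (23.8% of the CA1 genes and 24.3% of the CA3 genes), beside 3.06% of genes tested in both, and 25 were called higher in ventral CA3 (6.60% beside 2.71%). Of the 232 genes higher in ventral CA1, 65 were called higher in ventral CA3 (28.0% of the CA1 genes and 19.8% of the CA3 genes, beside 2.71%) and 11 higher in dorsal CA3 (4.74% beside 3.06%). In the dentate gyrus, 113 of the 379 were higher in dorsal granule cells (29.8% beside 10.6%) and 76 of the 232 higher in ventral granule cells (32.8% beside 11.5%). In the opposite directions, 50 of the 379 were higher in ventral granule cells (13.2% beside 11.5%) and 14 of the 232 higher in dorsal granule cells (6.03% beside 10.6%). In CA3, Xist was high in libraries 1 and 2 of both positions. In the dentate gyrus it was high only in dorsal libraries 2 and 3, at 3119 and 3058 CPM, against at most 12.8 CPM in the other dentate libraries, and the dentate calls numbered 3010 in the fit of 18 libraries and 775 in a fit of its 6 libraries. With fits of 6 libraries, 68 of 355 genes higher in intermediate CA1 were higher in dorsal granule cells (19.2% beside 3.60%), and 38 of 216 higher in ventral CA1 were higher in ventral granule cells (17.6% beside 2.48%). The opposite directions held 10 of the 355 and 6 of the 216 (2.82% beside 2.48%, and 2.78% beside 3.60%).

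Some of the ranked genes followed the long axis in each field and others did not. Mgll averaged 65.7 ± 6.84 CPM in the dorsal group, against 12.2 ± 5.29 CPM in ventral CA3 (SD, n = 3 each, adjusted p = 0.000324), and 48.9 ± 15.3 CPM in the dorsal group, against 4.45 ± 1.53 CPM in ventral granule cells (adjusted p = 5.98e-06). Cpne2 averaged 7.62 ± 0.338 CPM in the dorsal group, against 196 ± 49.7 CPM in ventral CA3 (adjusted p = 3.28e-06), and was not called in the dentate gyrus (adjusted p = 0.0801). Camk2d was called in the dentate gyrus, at 2.41 ± 1.47 CPM in the dorsal group, against 47.9 ± 12.4 CPM in ventral granule cells (adjusted p = 4.61e-06), but not in CA3 (adjusted p = 0.964). Lrrtm3 went in opposite directions, higher in ventral CA3, at 1.61 ± 1.43 CPM in the dorsal group, against 20.8 ± 3.99 CPM in ventral cells, and higher in dorsal granule cells, at 61.9 ± 20.8 CPM in the dorsal group, against 19.1 ± 5.27 CPM in ventral cells.

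Ventral CA1 cells labelled by their projection to the amygdala or the nucleus accumbens were not used to choose the genes, and their levels are given as description. Luzp2, higher in intermediate cells, averaged 0.0764 ± 0.0256 CPM in amygdala-projecting cells, beside 0.167 ± 0.290 CPM in accumbens-projecting cells (SD, n = 3 each). Plekhg1, with the same direction, averaged 0.0174 ± 0.0301 CPM and 0.0200 ± 0.0346 CPM there. Cpne2, higher in ventral cells, averaged 181 ± 25.3 CPM in amygdala-projecting cells, beside 151 ± 68.2 CPM in accumbens-projecting cells. Cdh20 did not follow, at 4.999 ± 4.54 CPM in amygdala-projecting cells, beside 5.77 ± 3.68 CPM in accumbens-projecting cells, beside 27.7 ± 5.43 CPM in ventral CA1 cells. Vipr2 stood out among the genes higher in intermediate cells, because apart from intermediate CA1, at 16.7 ± 3.25 CPM, only PV interneurons, at 14.1 ± 2.85 CPM, exceeded 2 CPM in the mean.

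**Figure D5:**
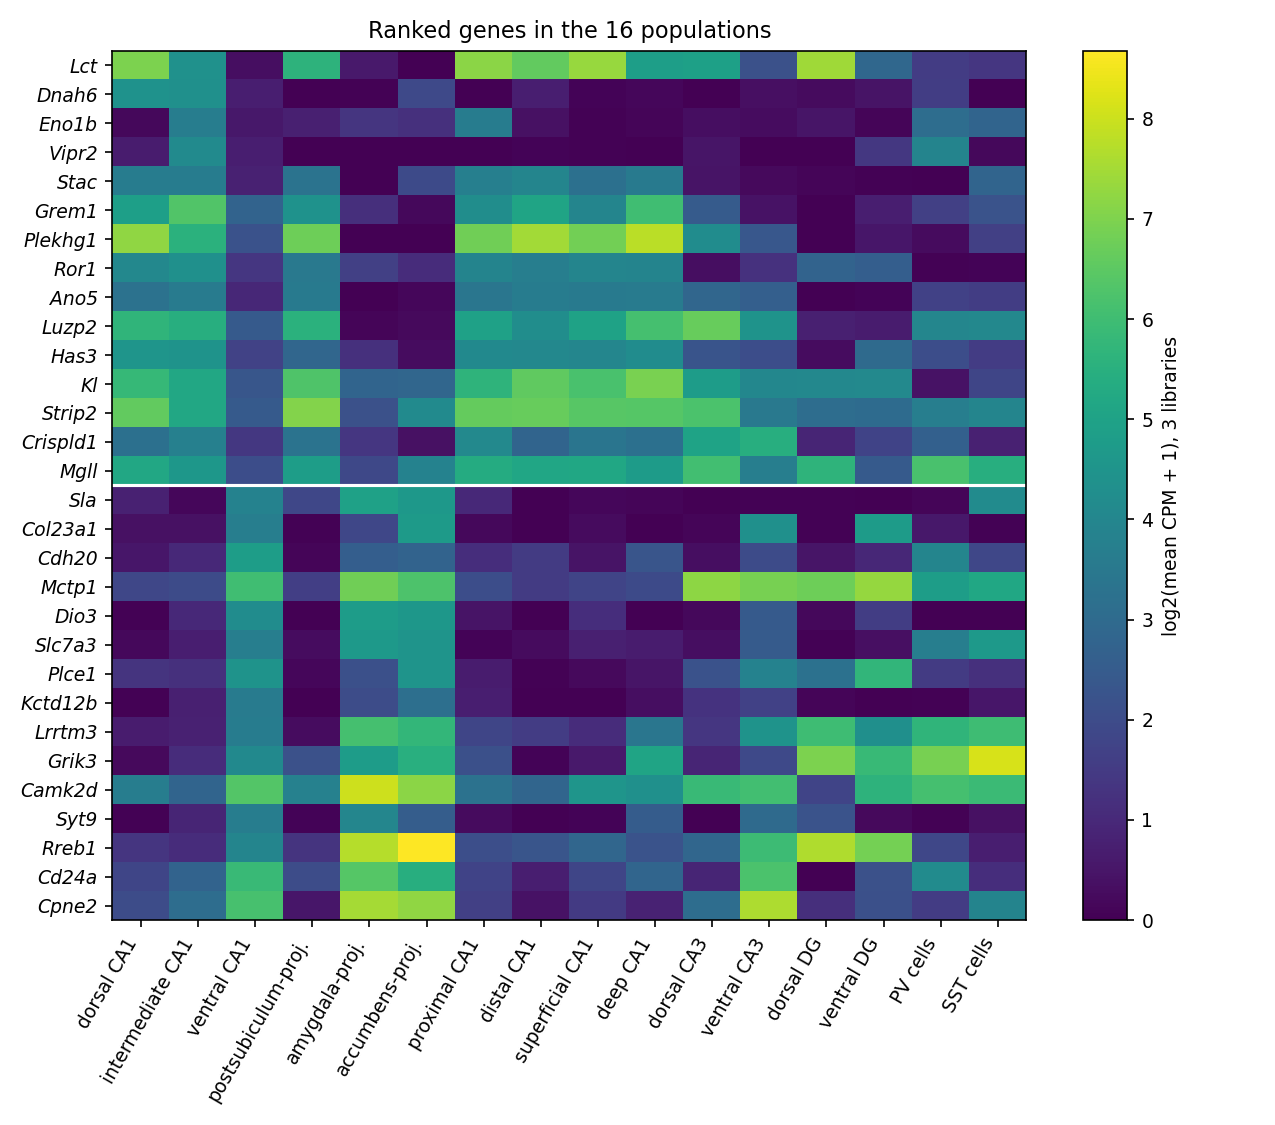
Colour gives the log2 of the mean CPM plus 1 over 3 libraries for the 30 ranked genes (rows) in the 16 populations (columns), with genes higher in intermediate CA1 above the white line and genes higher in ventral CA1 below it. The amygdala- and accumbens-projecting columns are bright for Cpne2, at 181 and 151 CPM, and dark for Luzp2, at 0.0764 and 0.167 CPM.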

How the data were processed

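Raw read counts for each Ensembl gene, and FPKM values for each gene and library from Cuffdiff, were deposited by the authors. Per the submitters' processing notes, the tools included HTSeq, DESeq2, TopHat2 2.0.6 and Cuffdiff 2.1.1, with mm9 and NCBIM37 named as builds, and the strand setting of counting is not given in the sources used here. Per the labels' protocols, RNA was amplified with the Ovation RNA-seq v2 kit after ERCC spike-in RNA was added, and the labels mention no molecular identifiers, so reads are not independent molecules and intervals cover counting error only. Libraries are numbered as in the count table, from 1, while the labels number them from 0.

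Counts were fitted with edgeR 4.0.16 in R 4.3.3 (quasi-likelihood F test, robust, TMM scaling, filterByExpr) over 9 dorsal, intermediate and ventral CA1 libraries with no covariate, and for the other fields over 18 dorsal and ventral CA1, CA3 and DG libraries. Benjamini-Hochberg adjustment covered every gene tested, and calls needed an adjusted p under 0.05. The SE of a log2 fold change is its size over the square root of F. Intervals of ratios with up to 3 reads in the lower group are exact binomial at 95%. FPKM values deposited by the authors were used for levels between genes and, on the log2(FPKM + 1) scale with limma 3.58.1, as an alternative. Other alternatives were DESeq2 1.42.0, other size factors, no filter, other sets of libraries and a replicate block. The fits were tested on simulated data. The series design text speaks of biological replicates without naming separate animals, so p-values measure the spread between samples. In the CA1 fit the biological coefficient of variation was 0.359.

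Genes were ranked if called, at 10 CPM or more in the higher group, with non-overlapping groups, and 15 were taken per direction without predicted, ribosomal, mitochondrial and sex-linked genes. Up to 4 called members per direction and list with the smallest p, and called markers, were added. Camk2b, Atp2b1, Atp2b2, Grin2b, Arc, Robo1, Robo2 and Sst were chosen after their values were seen, as was the promoter element. The members, lists and tests were chosen with earlier results of these data known. Gene names came from a reference list of Ensembl identifiers, and from RefSeq where that list had none. Together they named 32897 of 37620 identifiers, and genes without a name took up to 0.654% of gene reads in the 6 libraries compared. Chromosomes and exons came from the GENCODE M21 annotation. Exons of Has3, Kcnh7, Cacna1a, Penk, Cadm2, Tenm1, Epha6, Nr3c2, Syn2, Hpca, Prkca and Necab3 overlap a gene on the other strand in that annotation, so their levels are uncertain. Some genes that the rule selects are not reported here.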

Additional observations from a re-analysis of the deposited data

How the results depend on the processing

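Between intermediate and ventral CA1 cells, 611 genes were called, and all that were tested kept their direction under each of the 16 alternatives. These alternatives reuse libraries that made the calls, so a reversal was hardly possible. DESeq2 called 1028 genes (609 of the 611), limma called 340 on log2(FPKM + 1) and 294 on log2(FPKM + 0.1), a fit of all 48 libraries called 80, and one with only libraries low in Xist, added after the data were seen, called 243. Leaving out one library gave 399 to 539 calls. For dorsal against ventral CA3, 773 genes were called, 1187 by DESeq2, 1540 in a fit of its 6 libraries and 436 to 659 without one library. For the dentate gyrus, 3010 genes were called, 775 in a fit of its 6 libraries and 2002 to 3419 without one library. The cause of these shifts was not tested. With the replicate number as a block the counts were 512, 710 and 2704, but same-numbered intermediate and ventral libraries correlated at -0.029 to -0.008 in their deviations, so the numbers do not show a pairing. Of 115 called genes that the naming rule selects, not all of them named in the text, 80 kept the call without each library in turn and 30 under every alternative, and 0 reversed. Intermediate library 3 was low in Xist like the 3 ventral libraries, and 214 of the 243 calls made with only libraries low in Xist were among the 611. Genes with under 3 reads in a group have folds limited by depth.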
